A study of Mus musculus with 36 samples.

Results

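The comparison described here sets mouse fibroblasts 20 days after delivery of reprogramming factors against established embryonic stem cells (ESC), both lacking MLL3 (gene Kmt2c) and both keeping a conditional MLL4 allele (Kmt2d), the genotype written MLL3-/-;MLL4flox/flox. The members were chosen from the labels alone: the MLL3-/-;MLL4flox/flox samples named D20 iPSC and ESCs_rp, whose tables both give fragment counts scaled to gene length and library size (FPKM). They are 2 of the 36 samples of the series, 1 library a side, and 12 of the 36 are RNA libraries. The untreated fibroblasts of the same genotype (1 library) are set beside them as the cells the factors were delivered to. The wider study used cells with and without MLL4 to ask what MLL4 does in stem cells, in their differentiation and in reprogramming.

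The day-20 cells came from embryonic fibroblasts infected with lentiviral Oct4, Sox, Klf4 and c-MYC and then kept in stem cell medium with LIF. The labels name no sorting or colony picking, so the library is taken as a bulk culture. The ESC were grown on irradiated fibroblast feeders with LIF, and the labels state feeder removal for chromatin samples only. All 3 groups lack MLL3, so none stands for wild-type cells. The labels give no floxed-allele Cre for this genotype, no animal age and no statement of whether the fibroblast and ESC lines share a parent animal. Differences between a fibroblast-derived and an embryo-derived line cannot be told apart from differences of state. With 1 library a side, no difference below has a replicate check, and no p-value is given.

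Reprogramming by Oct4, Sox2, Klf4 and c-Myc turns fibroblasts toward pluripotency in stages. Mesenchymal genes are known to be silenced and epithelial genes switched on early, and the stem cell network around Nanog, Esrrb, Sall4 and the cell's own Oct4 and Sox2 genes is known to come on late, in a minority of cells. A bulk culture can therefore hold cells at different stages, and in such a library fewer cells of a type and less RNA per cell cannot be told apart.

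The depth behind the values was 21573240 reads in the ESC library, 25014400 in the day-20 library and 28921520 in the fibroblast library. A single read in a gene of 1 kb was worth 0.0464, 0.04 and 0.0346 FPKM in the same order. Of 24284 genes in each table, 12288 stood at 1 FPKM or more in ESC, 12474 at day 20 and 12000 in fibroblasts. Kmt2d was at 18.7 FPKM in ESC, 12.9 at day 20 and 14.4 in fibroblasts, and Kmt2c was at 3.44, 2.81 and 2.79 FPKM. These are whole-gene values that do not isolate a deleted part, so they check neither allele.

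The label iPSC does not describe the average of this library. The day-20 levels of 8 genes that define ESC (Pou5f1, Nanog, Sox2, Esrrb, Zfp42, Dppa5a, Utf1 and Tdgf1) were 0.0191% to 4.19% of ESC. Of 8 genes chosen as fibroblast markers (Col1a1, Col1a2, Col3a1, Thy1, Pdgfrb, Prrx1, Twist1 and Snai2), every one was at least 4-fold above ESC. Thy1 was lower in the untreated fibroblasts (3.37 FPKM) than in ESC (27.8), so it did not mark fibroblasts in these libraries. Given the ESC genes and the other fibroblast markers, the cells are called day-20 factor-treated cells here. Whether a small share of the culture carried the whole stem cell programme was not tested, since the library is an average.

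Stem cell genes were among the genes furthest below their ESC level, and genes of the fibroblast matrix and some epithelial products were among those furthest above it. Zfp42, a stem cell marker at 348 FPKM in ESC, was at 0.0666 FPKM at day 20. Col1a1, the gene of type I collagen, was at 89.7 FPKM in ESC and at 6061 at day 20. A difference is given throughout as day 20 minus ESC on the scale log2(FPKM + 1), which understates low genes, and a gene counts as higher or lower at a difference of 1 (2-fold) or more. Among 12996 genes with a mean of at least 1 FPKM over both libraries, 2733 were higher at day 20 (21.0%) and 3007 were lower (23.1%), together 44.2%. The order of these counts depended on scaling: 2917 were higher and 2826 lower with median-of-ratios scaling, and 2993 and 2737 with upper-quartile scaling. At 4-fold the counts were 983 (7.56%) and 1035 (7.96%), together 15.5%. Set against fibroblasts, with which the comparison shares the day-20 library, 892 of 12435 genes were higher (7.17%) and 715 were lower (5.75%), together 12.9%. At 4-fold those counts were 239 (1.92%) and 102 (0.820%), together 2.74%. The median size of the difference, whatever its sign, was 0.87 from ESC and 0.32 from fibroblasts. A gene near 0 in one library reaches the minimum only through the other, and its count as higher or lower was then fixed by the minimum. A count of list members below is read against these shares, and the median difference over all 12996 genes was -0.09.

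The genes furthest below their ESC level were stem cell genes. Dppa5a (Entrez gene 434423), an RNA-binding protein gene of pluripotent cells, stood at 1975 FPKM in ESC, at 4.07 at day 20 and at 0 in fibroblasts, a difference of -8.61. Zfp42 (Entrez gene 22702), which encodes the stem cell marker REX1, stood at 348 FPKM in ESC, at 0.0666 at day 20 and at 0 in fibroblasts. The day-20 value of Zfp42 is that of 3 reads against 13520 in ESC, or 0.0191% of the ESC level (exact 95% interval 0.00395% to 0.0559%, for counting error only). Utf1, a chromatin-associated factor of pluripotent cells, stood at 375, 0.31 and 0 FPKM in ESC, day-20 cells and fibroblasts. Day-20 cells were thus close to fibroblasts for all of these genes, with Dppa5a the one that stood apart from 0.

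The other 9 of the 12 lowest genes belonged to several roles. Tdgf1, the Nodal co-receptor Cripto, was at 288 FPKM in ESC and 0.83 at day 20, and Lin28a, the RNA-binding repressor of let-7, at 144 and 0.253. Esrrb, a nuclear receptor of the naive network, was at 174 and 0.147 FPKM. Tdh, the threonine dehydrogenase on which mouse ESC depend for one-carbon metabolism, was at 263 and 0.531 FPKM. Mycn, the Myc gene of early embryonic cells, was at 144 and 0.231 FPKM, and Mybl2, a cell cycle transcription factor, at 386 and 2.42. The prohormone gene Trh (384 and 0.895 FPKM), the mitochondrial gene Chchd10 (577 and 1.69) and the small adaptor gene Bex1 (224 and 0.462) completed them. In fibroblasts these 9 genes stood between 0 (Tdgf1, Lin28a) and 6.53 FPKM (Mybl2), and Mybl2 was the only one of them that was lower at day 20 than in fibroblasts.

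The 12 highest genes were mostly matrix and secreted products of mesenchymal cells. Col3a1 (Entrez gene 12825), the type III collagen gene, stood at 13.5 FPKM in ESC, at 3851 at day 20 and at 362 in fibroblasts, a difference of 8.05 from ESC. Igfbp4, a secreted binder of insulin-like growth factors, stood at 4.85, 672 and 18.3 FPKM, and its relative Igfbp5 at 0.641, 129 and 28.3. Fbn2, a microfibril gene, stood at 0.694, 181 and 18.8 FPKM. Each of these was higher at day 20 than in either of the other libraries.

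Not all of them were new at day 20. Ogn, the small proteoglycan osteoglycin, was at 0.255 FPKM in ESC, 170 at day 20 and 134 in fibroblasts. Aqp1, a water channel, was at 0.47, 150 and 100.1 FPKM, and Mgp, the matrix Gla protein, at 20.2, 1670 and 970 FPKM. These 3 were within 2-fold of the fibroblast level. Tgfbi, an adhesive matrix protein, was at 2.3, 289 and 69.5 FPKM, and Fzd1, a Wnt receptor, at 1.01, 171 and 40.2. The remaining 3, Aldh3a1, Slurp1 and Msln, are described with the genes that stood above both other libraries.

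**Figure D1:**
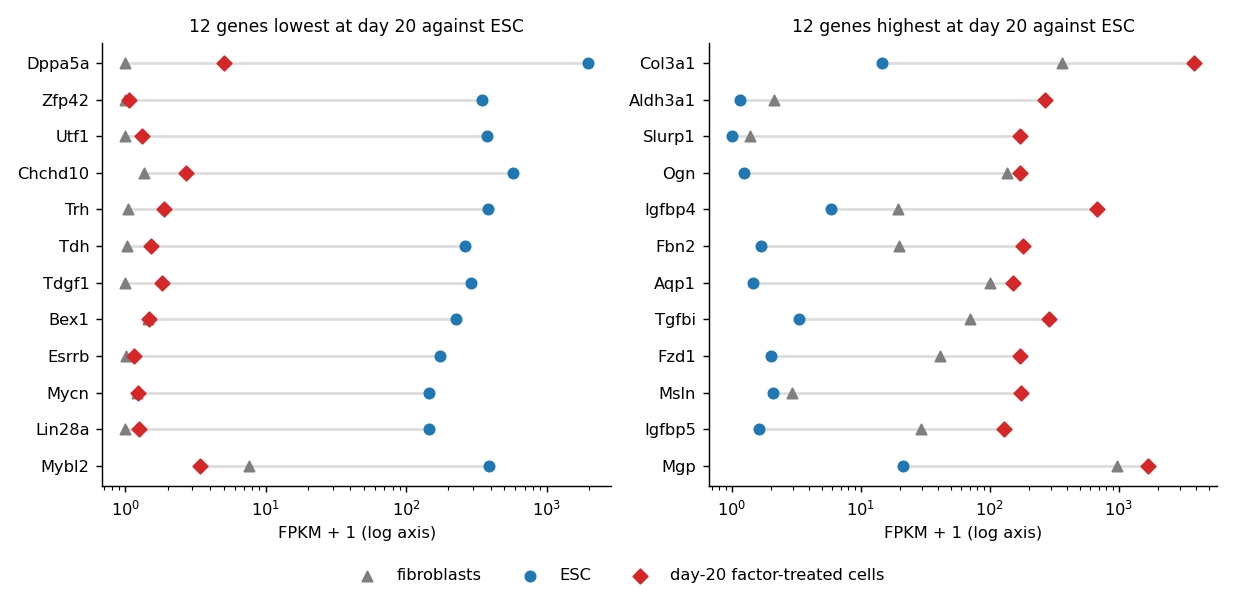
FPKM + 1 on a log axis for the 12 genes lowest (left) and the 12 highest (right) at day 20 against ESC, 1 point per library: circles ESC, diamonds day-20 factor-treated cells, triangles fibroblasts. On the left the day-20 points run from Zfp42 at 0.0666 to Dppa5a at 4.07 FPKM, with Dppa5a above its fibroblast point (0) and Mybl2 (2.42) below its own (6.53), and on the right they lie at or above the fibroblast points.

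Promoter sequences of these genes are shown because the genes at either extreme differed together. RefSeq windows (GRCm38.p6, 1 window per gene, the first listed, of the 250 bases before the start) were found for 10 of the 12 lowest and 7 of the 12 highest genes. Each motif was searched on both strands. The SP site GGGCGG was in 7 of the 10 windows of the lowest genes (70.0%) and in 2 of the 7 of the highest (28.6%), beside 32.9% of all 27025 windows. The TATA box sequence TATAAA was in 0 of 10 and in 4 of 7 (57.1%), beside 13.0% of all. Among the 4, only Igfbp4 had its match close to the start. The matches of Col3a1, Fzd1 and Ogn lay much further upstream. The count is therefore of sequence matches anywhere in the window, not of TATA promoters. The octamer ATGCAAAT, the site bound by Oct factors, was in 2 of 10 (Zfp42 and Chchd10) and in 1 of 7 (Col3a1), beside 1.61% of all. AP-1 (TGANTCA) and the E-box (CACGTG) were in none of the 17 windows, beside 6.87% and 6.05% of all. With so few windows these are descriptions only, and a match is not a bound site. Capitals below mark the octamer and SP sites of Zfp42, the SP sites of Utf1 and the TATA box of Igfbp4; SP matches can overlap.
Zfp42, chr8:43307010-43307259, - strand: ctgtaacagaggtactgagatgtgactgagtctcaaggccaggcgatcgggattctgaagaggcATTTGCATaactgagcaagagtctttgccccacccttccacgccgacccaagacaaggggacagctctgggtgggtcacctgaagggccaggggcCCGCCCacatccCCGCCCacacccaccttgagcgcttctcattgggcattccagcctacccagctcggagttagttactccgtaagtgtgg
Utf1, chr7:139943606-139943855, + strand: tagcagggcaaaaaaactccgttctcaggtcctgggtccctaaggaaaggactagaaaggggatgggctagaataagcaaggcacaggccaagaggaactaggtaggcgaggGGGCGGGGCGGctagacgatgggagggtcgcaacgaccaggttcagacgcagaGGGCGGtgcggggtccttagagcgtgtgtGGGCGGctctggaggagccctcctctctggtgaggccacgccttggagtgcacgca
Igfbp4, chr11:99040994-99041243, + strand: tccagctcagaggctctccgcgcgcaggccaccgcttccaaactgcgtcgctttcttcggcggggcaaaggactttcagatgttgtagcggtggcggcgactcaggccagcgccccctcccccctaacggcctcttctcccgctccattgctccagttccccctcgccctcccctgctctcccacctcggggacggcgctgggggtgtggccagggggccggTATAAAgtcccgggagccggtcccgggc

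The delivered factors differed from one another. Pou5f1, the gene of Oct4, stood at 650 FPKM in ESC, 19.8 at day 20 and 0.12 in fibroblasts. Sox2 stood at 224, 9.36 and 0.127 FPKM, so that both were far above fibroblasts and at 3.04% and 4.19% of ESC. Klf4 was at 88.8 FPKM in ESC but at 17.9 at day 20 and 18.8 in fibroblasts. Myc was at 10.8, 30.7 and 26.4 FPKM and was the factor with its lowest level in ESC. Viral and endogenous transcripts cannot be told apart in whole-gene values, the delivered Sox gene is not named further in the labels (Sox2 is given here), and the species of the delivered sequences is not stated. Klf4 and Myc at day 20 were within 1.5-fold of the fibroblast level.

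The rest of the pluripotency network remained far below ESC. All 20 listed core genes were at least 2-fold lower (median difference -5.33), against 23.1% of all genes. Their day-20 levels ran from 0.0191% (Zfp42) to 13.9% (Trim28) of the ESC level, with a median of 0.303%. Nanog, the homeobox factor that stabilises pluripotency, was at 212 FPKM in ESC, 5.49 at day 20 and 7.26 in fibroblasts, so that its day-20 value was no higher than that of cells without factors. Nanog has near-identical retrocopies, so its low values are uncertain. Gdf3, a TGF-beta ligand of ESC, was at 32.4, 4.42 and 4.56 FPKM in the same way. Sall4, a zinc finger partner of Oct4, was at 91.2, 0.126 and 0 FPKM, and Dppa4 at 68.7, 0.0521 and 0. L1td1, an RNA-binding protein gene, stood apart from fibroblasts as Dppa5a did, at 190, 4.19 and 0.047 FPKM. Against fibroblasts 7 of the 20 reached the minimum level. Of these 2, L1td1 and Dppa5a, were at least 2-fold higher at day 20 and 1, Mybl2, was lower. The 2 higher ones reached the minimum only through day 20. By value 14 of the 20 stood above fibroblasts at day 20 and 6 below, most of the 14 at under 1 FPKM.

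Naive-state genes gave the same picture with 2 exceptions. Of 19 measured, 17 were lower (median difference -4.61), among them Dnmt3l, the DNA methyltransferase cofactor (89.2 FPKM in ESC, 0.299 at day 20), Nr0b1 (90.1 and 0.379) and the growth factor Fgf4 (48.6 and 0.066). Mras, a small GTPase, was higher at day 20 (1.82 FPKM in ESC, 13.6 at day 20, 17.3 in fibroblasts), and Tbx3 was level (11.9, 12.9 and 15.7 FPKM). Klf2 was at 208 FPKM in ESC, 5.61 at day 20 and 19 in fibroblasts, below both, and Klf5 at 132, 3.15 and 3.37. Against fibroblasts 7 of the 19 reached the minimum level, of which none was at least 2-fold higher at day 20 and 1, Klf2, was lower. By value 12 of the 19 stood above fibroblasts at day 20 and 7 below. Most of the 12 were under 1 FPKM, too low for a 2-fold difference on this scale, such as Tdh (0.531 against 0.0184 FPKM).

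Genes of the primed epiblast, a later pluripotent stage, were also low. Of 15 measured, 11 were lower and none was higher. Dnmt3a and Cer1 were within the 2-fold bounds, and Fgf5 and Sox3 (1.32 FPKM in ESC, 0 at day 20) were under the minimum level. The Nodal antagonists Lefty2 (176 FPKM in ESC, 0.569 at day 20) and Lefty1 (209 and 1.84) and the de novo methyltransferase Dnmt3b (74 and 0.868) differed most, with Cldn6 (62.2 and 0.239). Fgf5, a defining gene of the primed epiblast, was at 0.926 FPKM in ESC, 0.511 at day 20 and 0.525 in fibroblasts.

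Receptors and kinases of LIF signalling, which keeps mouse ESC undifferentiated, were expressed at day 20 at or above the ESC level. Il6st, the shared receptor subunit gp130, was at 23.6 FPKM in ESC, 409 at day 20 and 112 in fibroblasts. Lifr was at 7.77, 9.46 and 7.82 FPKM and Stat3 at 33.9, 64.8 and 64.3. The kinases Jak1 (14.2, 59.2 and 47.0 FPKM) and Jak2 (2.38, 11 and 13.2) were higher than in ESC. Among the targets, Socs3 was level (46.6 FPKM in ESC, 47.2 at day 20), while the kinase genes Pim1 (96.8 and 10.8) and Pim3 (103 and 5.8) were lower. Of 12 members 3 were higher and 2 lower, shares near those of all genes.

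Fibroblast genes remained on, several above and others below their level in the untreated fibroblasts. Of 20 fibroblast identity genes 17 were higher than in ESC, none was lower, and the median difference was 2.69. Of the 17, Foxc2 (0.289 FPKM in ESC, 7.63 at day 20) reached the minimum only through day 20, so its count was fixed. Prrx2, a mesenchymal homeobox gene, was at 2.83 FPKM in ESC, 116 at day 20 and 62.8 in fibroblasts. Pdgfra, the PDGF receptor alpha, was at 4.11, 120.1 and 26.5 FPKM, Pdgfrb at 3.25, 100.6 and 40.3, and Tbx15 at 1.94, 56.9 and 25.7. Twist1, a mesenchymal transcription factor that is known to oppose reprogramming, was at 3.84, 75.3 and 21.9 FPKM. Thy1, a surface marker that fibroblasts usually lose in reprogramming, was at 27.8 FPKM in ESC, 120 at day 20 and 3.37 in fibroblasts. It was thus lowest in the untreated fibroblasts, and its day-20 level is not a retained fibroblast level. Against fibroblasts 6 of the 20 genes, Thy1 among them, were at least 2-fold higher at day 20 and 1, Snai2 (28.7 against 63.7 FPKM), was lower. By value 12 of the 20 stood above fibroblasts at day 20 and 7 below. Among the 7 were Vim (875 against 1442 FPKM), S100a4 (304 against 528) and Prrx1 (37.2 against 71.1).

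Matrix genes had the highest median difference of the 38 lists. Of 20 genes of fibrillar collagens and matrix, 19 were higher than in ESC, none was lower, and the median difference was 4.28. Col1a1 was at 89.7 FPKM in ESC, 6061 at day 20 and 1345 in fibroblasts, and Col1a2 at 72.2, 2663 and 1387. Lum, the proteoglycan lumican, was at 1.5, 168 and 52.7 FPKM, and Thbs2, thrombospondin 2, at 12.1, 539 and 71.7. Tenascin C (Tnc) was the member that was not higher, at 133 FPKM in ESC, 72.7 at day 20 and 121 in fibroblasts. Against fibroblasts 14 of the 20 were at least 2-fold higher at day 20 and none was lower. The summed level of the list was 1403 FPKM in ESC, 23075 at day 20 and 8754 in fibroblasts.

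The ESC library itself held matrix transcripts, with Fn1, fibronectin, at 460 FPKM and Col1a1 at 89.7. The 20 fibroblast identity genes summed to 409 FPKM in ESC, 2016 at day 20 and 2464 in fibroblasts, with Tcf21 at 0 in all 3. Vim (259 FPKM) and S100a4 (69.9) made up most of the ESC sum. Feeder RNA and expression by the ESC cannot be told apart here, and the part of feeders in the differences was not tested.

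Enzymes that cut matrix, and their inhibitors, were also higher. Of 14, 11 were higher than in ESC and none lower (median difference 2.84): the gelatinase gene Mmp2 was at 13.2 FPKM in ESC, 425 at day 20 and 97.9 in fibroblasts. The plasminogen activator gene Plat was at 3.28, 94.4 and 33.9 FPKM, Adamts1 at 3.06, 83.0 and 57.4, and the inhibitor gene Timp3 at 10.6, 182 and 175. Mmp3 and Mmp13 were near 0 in fibroblasts (0.192 and 0.0905 FPKM) but at 47.4 and 16.9 FPKM at day 20, and at 22.2 and 2.27 in ESC.

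The contractile cytoskeleton behaved differently from the matrix. Of 16 genes, 8 were higher than in ESC and 1 was lower (median difference 1.22), but all 16 were below the fibroblast level and 12 of them at least 2-fold below it. Acta2, smooth-muscle actin, was at 116 FPKM in ESC, 174 at day 20 and 1544 in fibroblasts, and Tagln at 156, 203 and 699. Cald1, caldesmon, was at 36.5, 207 and 452 FPKM, and the nuclear lamina gene Lmna at 28.2, 127 and 178. The YAP target Ctgf (also named Ccn2) was lower at day 20 than in either, at 76.7, 33.6 and 192 FPKM. Against fibroblasts, then, the contractile genes lay on the other side from the collagens, of which 19 of 20 listed matrix genes stood above the fibroblast level.

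**Figure D2:**
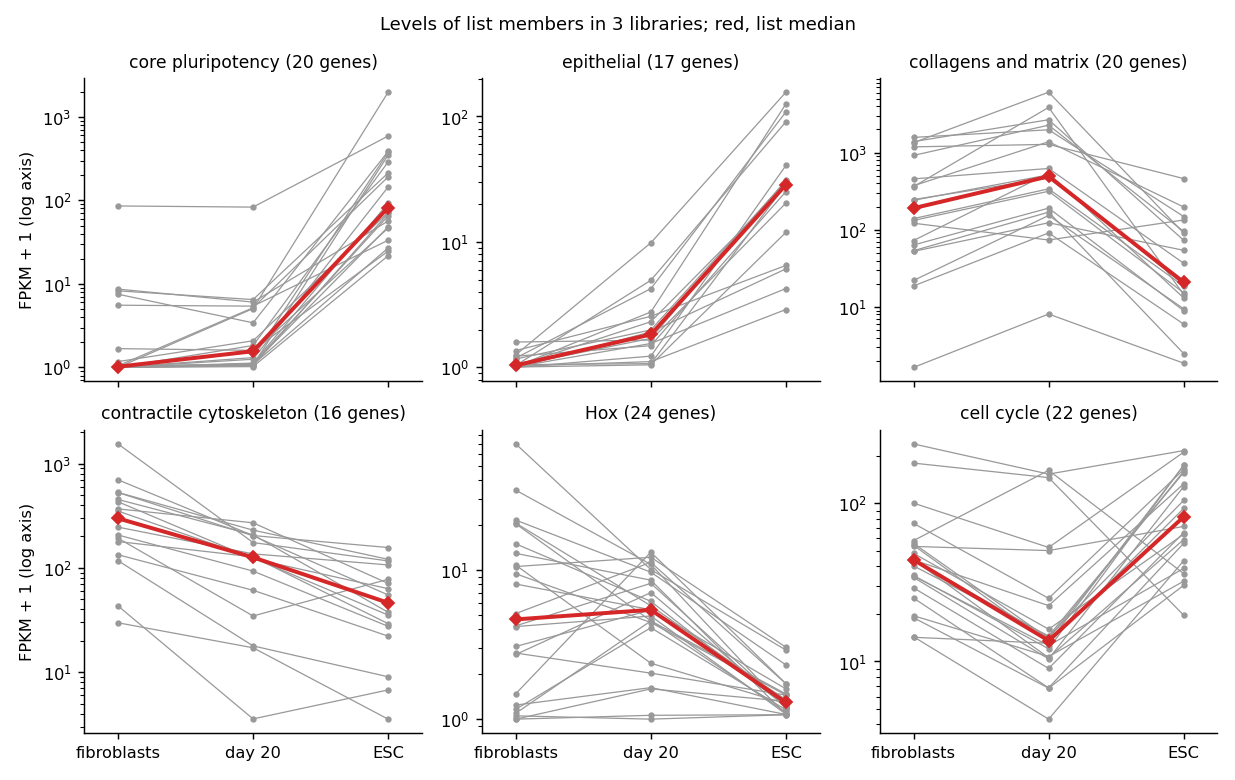
FPKM + 1 on a log axis in the fibroblast, day-20 and ESC libraries for the members of 6 gene lists, 1 thin line per gene, with the list median in red. The core pluripotency median is 0.0196 FPKM in fibroblasts, 0.562 at day 20 and 81.0 in ESC, the collagen and matrix median peaks at day 20 (491 FPKM), and the cell cycle median is lowest there (12.6 FPKM).

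Epithelial genes, which ESC express and which reprogramming cells are known to switch on, were low at day 20 but mostly not at the fibroblast level. All 17 were lower than in ESC (median difference -3.99), and all 17 were above fibroblasts by value. For some the gap was within a few reads, as for Spint1 (0.65 against 0.593 FPKM, 37 reads at day 20 against 39 in fibroblasts). Cdh1, E-cadherin, stood at 108 FPKM in ESC, 3.24 at day 20 and 0.188 in fibroblasts. Epcam stood at 125, 1.77 and 0.0168 FPKM, and the tight junction gene Cldn4 at 89.8, 3.95 and 0.0382. Ap1m2, a sorting adaptor of epithelia, was at 39.7, 0.23 and 0 FPKM, and Tjp3 at 27.6, 0.0718 and 0.0517. The list summed to 732 FPKM in ESC, 26.3 at day 20 and 2.07 in fibroblasts. At least 2-fold higher than fibroblasts on the log2(FPKM + 1) scale were the 3 of them that reached the minimum level in that comparison, which they did only through day 20, Cdh1, Cldn4 and Spint2 (155, 8.84 and 0.261 FPKM).

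Keratins and desmosome genes went both ways. Of 18, 5 were higher than in ESC and 5 lower, with 4 under the minimum level. Krt6a and Pkp1 reached the minimum only through day 20 and Krt42 only through ESC, so their counts were fixed by the minimum. The basal keratin Krt14 stood at 0.726 FPKM in ESC, 55.9 at day 20 and 0.167 in fibroblasts, and Krt6a at 0, 4.34 and 0.0613. The plakophilin Pkp1 was at 0.0103, 7.75 and 0.37 FPKM. Krt8 was at 9.17, 32 and 0.0383 FPKM and Krt17 at 12, 28.2 and 0.0229. By contrast Krt18, the usual partner of Krt8, was lower than in ESC (13.5, 2.94 and 0.0494 FPKM), as were Krt42 (17.5, 0.129 and 0) and the desmoglein Dsg2 (12.9, 0.726 and 0.115). All of these stood above fibroblasts at day 20.

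Genes of stratified surface epithelium also went both ways. Of 18, 6 were higher than in ESC, 4 were lower and 8 were under the minimum level. Of the 6, Ehf, Cnfn, Sprr1a and S100a14 were near 0 in ESC and reached the minimum only through day 20. Sbsn (2.09 FPKM in ESC, 12.5 at day 20, 2.09 in fibroblasts) and S100a14 (0.127, 3.65 and 0.0316) had the largest positive differences, and the transcription factor Ehf stood at 0, 2.21 and 0.0394 FPKM. The lower members were transcription factors that ESC express, Elf3 (13.3 FPKM in ESC, 0.16 at day 20), Grhl3 (9.39 and 0.144) and Grhl1 (5.19 and 0.215), and Sfn (47.0 and 16.9). Elf3, Grhl3 and Grhl1 were near 0 at day 20 and reached the minimum only through ESC. Their count as lower was thus fixed by the minimum. Trp63, the defining factor of stratified epithelium, was at 0.00766 FPKM in ESC, 1.43 at day 20 and 0.0799 in fibroblasts, and Ly6d and Sprr2a1 were at 0.0579 and 0 FPKM at day 20. The median over all 18 measured members was 0.04.

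The 8 genes that stood furthest above both other libraries at day 20 were Aldh3a1, Slurp1, Msln, Cxcl5, Prelp, Dpt, Igfbp4 and Krt14. Aldh3a1, an aldehyde dehydrogenase abundant in corneal epithelium, was at 267 FPKM at day 20, against 0.161 in ESC and 1.12 in fibroblasts. Slurp1, a secreted protein of keratinocytes, was at 169 FPKM at day 20, listed at 0 in ESC and at 0.395 in fibroblasts. Msln, the surface protein mesothelin, was at 174, 1.07 and 1.93 FPKM in day-20 cells, ESC and fibroblasts. The proteoglycan gene Prelp was at 128 FPKM against 0.656 and 1.97, and the dermal matrix gene Dpt at 67.8 against 0.793 and 0.782. Cxcl5, a neutrophil chemokine, was at 68.8 FPKM against 0.42 and 0.606. The 8 thus held epithelial, mesothelial and connective tissue products side by side, and a bulk library does not show whether the same cells carried them.

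**Figure D3:**
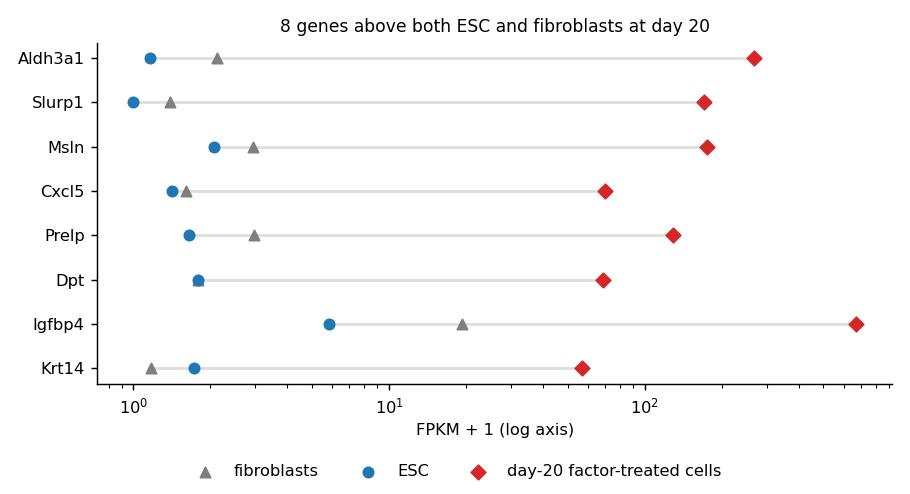
FPKM + 1 on a log axis for the 8 genes furthest above both ESC and fibroblasts at day 20, 1 point per library: circles ESC, diamonds day-20 factor-treated cells, triangles fibroblasts. Aldh3a1 is at 267 FPKM at day 20 and at 0.161 and 1.12 FPKM in the other libraries.

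Genes far below both included Pdlim1, Kif20b, Peg10, Ect2, Uchl1, Ncapd2 and Stmn2. Pdlim1, a cytoskeletal adaptor gene, stood at 63.3 FPKM in ESC, 6.67 at day 20 and 53.7 in fibroblasts. Kif20b, Ect2 and Ncapd2 act in mitosis and cytokinesis, and Ncapd2, a condensin subunit, stood at 89.8, 13.3 and 63.4 FPKM. Peg10, an imprinted retrotransposon-derived gene, was at 72.5, 4.48 and 29.7 FPKM, and Uchl1, a ubiquitin hydrolase, at 72.2, 5.44 and 28.1.

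The low mitotic genes were not isolated. Of 22 cell cycle genes, 18 were lower than in ESC and 2 were higher (median difference -2.63). The replication helicase gene Mcm3 was at 173 FPKM in ESC, 11 at day 20 and 34 in fibroblasts, Mcm5 at 127, 9.38 and 33.0, and Mcm2 at 156, 13.5 and 39.2. The mitotic genes Cdc20 (173, 12.1 and 53.3 FPKM) and Ccnb1 (158, 13.0 and 54.8) were likewise lowest at day 20. The 2 higher genes were cyclins of G1, Ccnd1 (35.0, 161 and 57.2 FPKM) and Ccnd2 (18.6, 144 and 179), while their relative Ccnd3 stood at 70.5, 49.3 and 52.4. Against fibroblasts 14 of the 22 were at least 2-fold lower at day 20, and 21 of 22 were below them.

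Of the listed inhibitors of cyclin-dependent kinases, which arrest cells and are known barriers to reprogramming, Cdkn2a, Cdkn2b, Cdkn2c and Cdkn1a were higher than in ESC. Cdkn1b was within the 2-fold bounds, at 17.3 FPKM in ESC, 33.3 at day 20 and 40.7 in fibroblasts. Cdkn2a, the gene of p16 and p19ARF, was at 11.6 FPKM in ESC, 43.7 at day 20 and 136 in fibroblasts, and its neighbour Cdkn2b at 4.89, 19.9 and 22.8. Cdkn2c was at 0.617, 27.8 and 21.5 FPKM. Cdkn1a, the gene of p21, was at 40.1 FPKM in ESC, 109 at day 20 and 15.2 in fibroblasts, highest at day 20. Trp53 itself was lower than in ESC (207 FPKM in ESC, 41.5 at day 20), as were the apoptosis genes Bax (226 and 82.8) and Bbc3 (31.7 and 5.79). Of the 15 listed genes 5 were higher and 4 lower, so the list as a whole did not lie to one side.

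Chromatin regulators that ESC hold at high levels were lower at day 20. Of 18 Polycomb and other regulators, 17 were lower, none was higher, and the median difference was -1.91. Cbx7, the Polycomb reader of ESC, was at 78.7 FPKM in ESC, 1.73 at day 20 and 1.0 in fibroblasts, Phc1 at 227, 10.5 and 17.5, and Jarid2 at 82.2, 4.06 and 3.89. The remodeller Chd7 was at 17.0, 0.52 and 0.269 FPKM. Hells, a remodeller tied to DNA methylation and S phase, was at 61.8, 4.52 and 21.4 FPKM. Only Rnf2 was within the 2-fold bounds, at 25.7, 20.8 and 16.8 FPKM.

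Enzymes of DNA methylation went both ways. Tet1, the 5-methylcytosine oxidase of ESC, was at 63.4 FPKM in ESC, 1.25 at day 20 and 0.859 in fibroblasts, while its relative Tet3 was at 1.37, 7.5 and 5.94. The maintenance methyltransferase Dnmt1 was at 76.9, 15.8 and 39.5 FPKM and its recruiter Uhrf1 at 122, 8.12 and 34.1, both lowest at day 20. Mbd2, a methyl-CpG reader, was higher than in ESC at 8.84, 34.6 and 29.5 FPKM. Of the 10 listed, 3 were higher and 4 lower.

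The core subunits that MLL3 and MLL4 share with related complexes were lower than in ESC. Wdr5 was at 61.9 FPKM in ESC, 15.4 at day 20 and 13.7 in fibroblasts, Ash2l at 80.2, 21.6 and 28.0, Dpy30 at 44.6, 11.8 and 14, and Rbbp5 at 22.9, 7.51 and 7.59. Of 10 subunits 6 were lower, none was higher, and none was at least 2-fold from fibroblasts. Ncoa6 was the member with a higher level than in ESC (6.42, 10.6 and 14.1 FPKM), within the 2-fold bounds.

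Hox genes, which record the body position of a somatic cell, were higher than in ESC at day 20. Of 24 measured, 18 were higher than in ESC, none was lower and 6 were under the minimum level; the median over all 24 was 2.00. Their ESC levels were so low (median 0.293 FPKM) that those past the minimum passed it by their day-20 level. Hoxa5 was at 0.173 FPKM in ESC, 9.9 at day 20 and 33.3 in fibroblasts, and Hoxa2 at 0.0783, 7.54 and 11.9. Others stood higher at day 20 than in fibroblasts: Hoxd8 was at 12.2 against 0.48 FPKM, Hoxa10 at 7.14 against 3.22 and Hoxc10 at 10.3 against 4.1. Against fibroblasts 5 were at least 2-fold higher and 8 lower, so the day-20 set differed from that of the untreated library in both directions.

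Imprinted genes, expressed from 1 parental copy, were detected at day 20. The Dlk1-Dio3 region is known to be silenced in some mouse iPSC lines. Of its 7 measured genes 3 were at least 2-fold higher than in ESC (Dlk1, Dio3 and Meg3) and none was lower. Dio3 (0.174 FPKM in ESC, 3.62 at day 20) reached the minimum only through day 20. Its count as higher was thus fixed by the minimum. The noncoding Meg3 was at 36 FPKM in ESC, 103 at day 20 and 46.5 in fibroblasts, Rian at 94.1, 152 and 120, and Dlk1 at 2.02, 31.8 and 13.0. Rtl1 (1.2 FPKM in ESC, 1.25 at day 20) and Mirg (15.3 and 15.6) were level with ESC. Of 17 other imprinted genes 9 were higher than in ESC and 2 lower (median difference 1.37). H19 was at 48 FPKM in ESC, 1712 at day 20 and 704 in fibroblasts, and the growth factor gene Igf2 beside it at 16.3, 214 and 34.9. Zim1 was at 0.252, 19.6 and 1.99 FPKM, and its count as higher was fixed by the minimum in the same way as that of Dio3. Peg10 and Nnat (12.3, 3.98 and 36.5 FPKM) were the lower ones. Snrpn was listed at 0 in all 3 libraries.

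Germline genes at low levels in ESC were lower still. Of 15 measured, 6 were at least 2-fold lower and none was higher, with 8 under the minimum. Ddx4, Piwil2 and Mael were near 0 at day 20 and reached the minimum only through ESC. Ddx4 (Vasa) was at 4.91 FPKM in ESC and 0.126 at day 20, the piRNA gene Piwil2 at 4.85 and 0.301, Mael at 3.39 and 0.0259, Dnd1 at 6.34 and 0.49 and the germ cell determinant Prdm1 at 6.69 and 0.399.

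Genes of sugar transport and early glycolysis, which run high in ESC, were among the lower ones at day 20. Slc2a3, a glucose transporter, was at 388 FPKM in ESC, 2.52 at day 20 and 0.742 in fibroblasts, and Slc2a1 at 176, 47.7 and 43.7. Hexokinase 2 (Hk2) was at 73.5, 19.2 and 15.9 FPKM and the phosphofructokinase gene Pfkp at 73.2, 14 and 8.1. Ldha was level at 414, 487 and 320 FPKM. Car9 (also named Ca9), a hypoxia-induced carbonic anhydrase, was at 0.615, 11.3 and 1.52 FPKM. Of 18 listed genes 8 were lower and 3 higher, and of 18 respiratory chain genes 8 were lower and none higher (median difference -0.94). Among 20 ribosomal protein genes only Rpl8 passed the 2-fold bound (1919 FPKM in ESC, 705 at day 20).

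**Figure D4:**
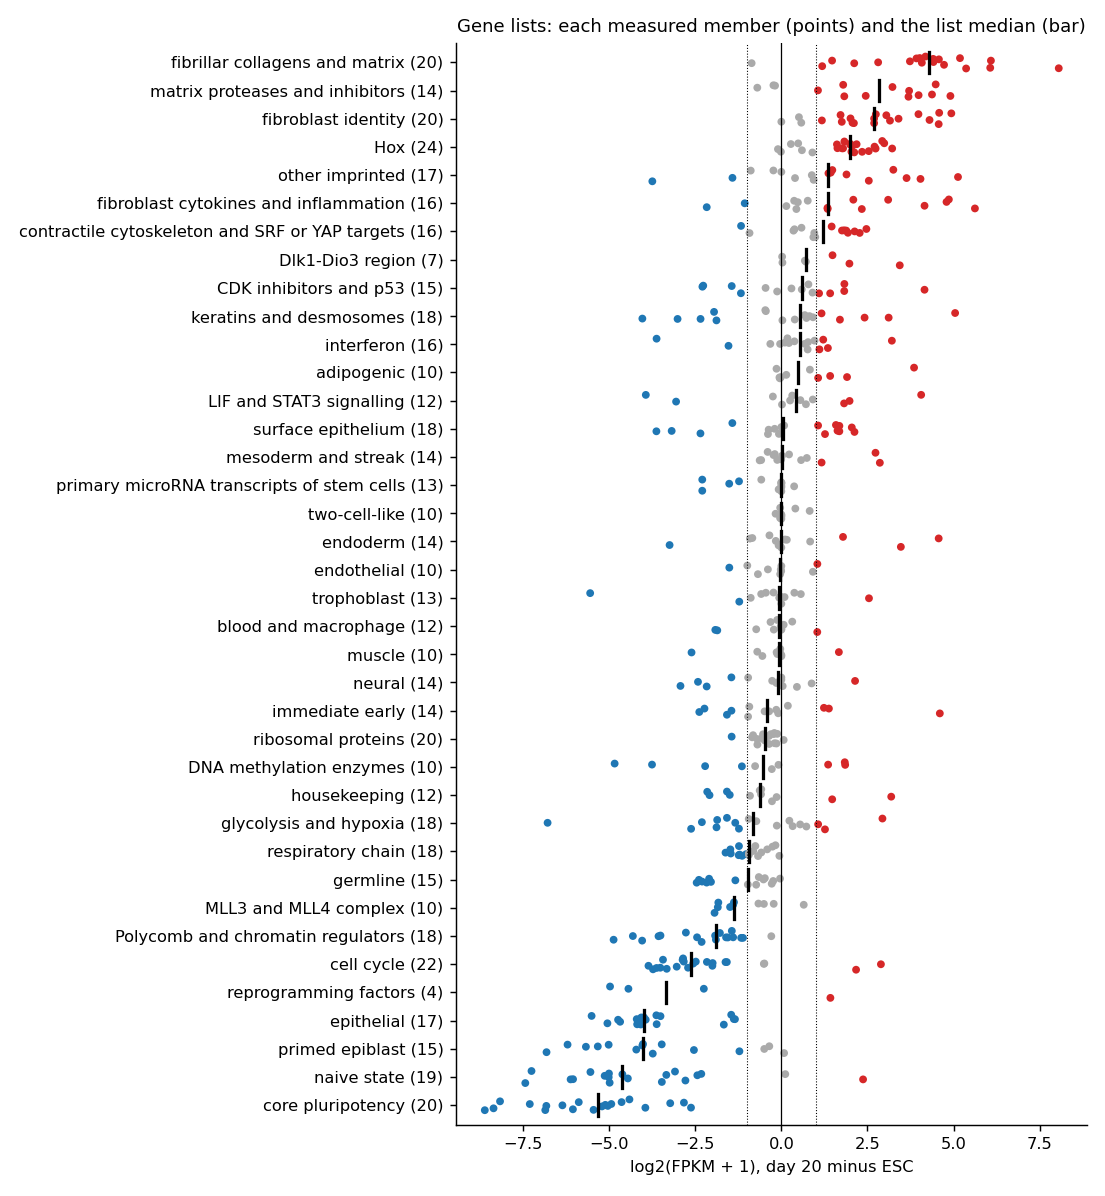
Difference of day 20 from ESC on the log2(FPKM + 1) scale for each measured member of the 38 gene lists (points, red at 1 or more, blue at -1 or less, whatever the level) with the median over measured members as a bar and the list size in brackets; points are spread vertically only for legibility. The collagen and matrix list has the highest median (4.28) and the core pluripotency list the lowest (-5.33).

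Inflammatory products of fibroblasts were higher than in ESC in 9 of 16 genes and lower in 2 (median difference 1.34). Cxcl1 was at 0.782 FPKM in ESC, 50.8 at day 20 and 1.06 in fibroblasts, and Il1rl1, the IL-33 receptor, at 3.78, 84.3 and 9.36. Cxcl12, the stromal chemokine, was at 1.52, 69.0 and 388 FPKM, below fibroblasts. Among 16 interferon genes 3 were higher than in ESC and 2 lower, and 9 were at least 2-fold below fibroblasts. Ifitm1 was at 113 FPKM in ESC, 8.28 at day 20 and 6.54 in fibroblasts, and Isg15 at 1.96, 6.56 and 79.2.

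Markers of other cell types were checked in the same libraries. The blood and macrophage list summed to 18.6 FPKM in ESC, 5.08 at day 20 and 5.4 in fibroblasts over 12 genes, with Spi1, Tyrobp and Gata1 at 0 at day 20 and Ptprc at 0.0282. Its highest members at day 20 were Cd68 (9.07 FPKM in ESC, 1.67 at day 20, 1.69 in fibroblasts), Lyz2 (7.98, 1.475 and 0.196) and Cd14 (0.14, 1.35 and 3.46). The endothelial list summed to 20.7, 9.88 and 10.3 FPKM over 10 genes, with Cdh5 and Tie1 at 0 at day 20. Tek was at 0.937, 2.65 and 0.176 FPKM and Egfl7 at 16.1, 5.02 and 1.89. Muscle genes summed to 54.9, 34.4 and 55.7 FPKM over 10 genes, nearly all of it Acta1, with Myod1 and Myog at 0 at day 20, but Tnnt2 was at 0.037, 2.3 and 0.11. Of 14 endoderm genes 3 were higher (Pdgfra, Dab2 and Foxa1), 1 was lower (Lama1) and 9 were under the minimum, with Sox17, Hnf4a and Ttr at 0 at day 20. Dab2 was at 2.61, 39.0 and 15.5 FPKM and Foxa1 at 0.102, 2.81 and 0.141. Of 14 mesoderm and streak genes 2 were higher, Gsc (0.316, 8.55 and 3.09 FPKM) and Foxf1 (0.0382, 5.9 and 1.13). None was lower and 10 were under the minimum, with T and Hand1 at 0 at day 20. Gsc, Foxf1 and the endoderm gene Foxa1 reached the minimum only through day 20. Their count as higher was thus fixed by the minimum. Of 10 adipogenic genes 3 were higher than in ESC (Fabp4, Cebpa and Cebpb), none was lower and 5 were under the minimum. Fabp4 was at 4.12 FPKM in ESC, 73.0 at day 20 and 3.13 in fibroblasts. Cebpa was at 0.931, 6.24 and 0.485 FPKM in the same order, and Cebpb at 26.7, 72.8 and 24.4. Adipoq (0.0649) and Plin1 (0.0417) were near 0 at day 20. Trophoblast genes were mixed, with Tfap2c at 49.5 FPKM in ESC and 0.0782 at day 20 and Gata2 at 0.829 and 9.66. Of 14 neural genes 4 were lower and 1 was higher, and Tubb3 was at 42.8 FPKM in ESC and 7.19 at day 20, and Sox1 and Neurog2 were at 0.0396 and 0 at day 20.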

How the data were processed

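Each library was made from purified mRNA with the Illumina TruSeq kit, per the labels' protocols. The authors deposited FPKM, 1 number for each Entrez gene. Build mm9 and the tools CASAVA 1.8.2 and SICER come from the submitters' processing notes. Which aligner, annotation release and strand setting made the FPKM is not given in the sources used here; therefore near-identical, overlapping and antisense genes are uncertain. Of 24284 genes, 24203 matched the GRCm38.p6 gene table by Entrez number, used for names only (27 symbols had been turned into dates). Read counts and RPKM values per transcript, deposited by the authors for another ESC library of this genotype, were used only to recover transcript lengths. With those lengths, low FPKM values of genes with 1 transcript gave each library's depth to 20 reads: 96.8% to 97.2% of them were whole reads within 0.02. The ESC library used is replicate 2 of its group, since replicate 1 is in another unit.

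Differences were computed in Python 3.11.15 as log2(FPKM + 1) with a minimum mean of 1 FPKM and no test. Scripts were tested on simulated data. Named genes were Kmt2d, Kmt2c, the 4 factors, the cell type markers, the 12 highest and 12 lowest, the 8 above and 8 below both other libraries, and up to 5 members of each of 38 lists (565 of 566 entries matched); members named outside this rule were chosen after their values were seen. The comparison and the lists were chosen with earlier results of these data known. Alternatives were another pseudocount, filter, scaling and fold. Other libraries were not used here, and some genes that the naming rule picks are not reported here.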

Additional observations from a re-analysis of the deposited data

How the results depend on the processing

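No paired analysis was possible because each side has 1 library and the result comes from no test, and leaving out a library was not possible for the same reason. The counts of genes higher and lower than in ESC were 983 and 1035 at 4-fold, and 1818 higher with a mean of at least 5 FPKM. Against fibroblasts they were 239 and 102 at 4-fold, and 505 higher with a mean of at least 5 FPKM. Without a filter 15 lists, in place of 23, had a median difference of at least 1 in size. Under the other settings these counts stayed within 1.5 times, but the excess of lower over higher genes against ESC turned with median-of-ratios scaling (2917 higher, 2826 lower) and upper-quartile scaling (2993 and 2737). The endoderm median, 1.79 over members past the minimum, was -0.0227 without a filter, and that of surface epithelium, 1.61, was -1.42 with a mean of at least 5 FPKM; in both, the members counted differ. Upper-quartile scaling moved the median of all genes from -0.09 to 0.02, and median-of-ratios scaling to -0.01. With a pseudocount of 0.1 FPKM, 77 of 203 named genes moved by more than 1.5-fold, and none of the 203 changed direction where it was past 2-fold. Depth limits values of a few reads, such as that of Zfp42.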

Other observations

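Common reference genes did not hold 1 level across the libraries. Gapdh stood at 3403 FPKM in ESC, 1139 at day 20 and 1372 in fibroblasts. B2m, the light chain of class I MHC, stood at 49.1 FPKM in ESC, 456 at day 20 and 789 in fibroblasts, and the lysosomal enzyme gene Gusb at 9.25, 27.5 and 33.4. Tfrc, the transferrin receptor, was at 34.2, 6.92 and 27.7 FPKM. Of 12 such genes 4 were at least 2-fold lower than in ESC and 2 higher.

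At the extremes of level, 16 of the 642 genes at 100 FPKM or more in ESC were below 1 FPKM at day 20. Of the 526 genes at 100 FPKM or more at day 20, 8 were below 1 FPKM in ESC. Beside those described above, the first set held the glycine decarboxylase gene Gldc (124 FPKM in ESC, 0.148 at day 20) and the uridine phosphorylase gene Upp1 (117 and 0.313). The second held Cemip, a hyaluronan-degrading protein gene, at 0.906 FPKM in ESC, 105 at day 20 and 5.49 in fibroblasts. Immediate early genes were mixed: Fosl2 was at 3.55 FPKM in ESC, 109 at day 20 and 69.7 in fibroblasts, whereas Ier2 was at 126, 23.3 and 19.4.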
